A study of Mus musculus with 10 samples.

Results

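Growth factors and the receptor tyrosine kinases they bind were followed in whole mouse lung as 40 genes, chosen by gene symbol out of 53342 genes in the deposited table. They are ligands and receptors of the EGF, FGF, PDGF, VEGF, HGF, IGF and KIT systems. Each symbol matched 1 row, and all 40 passed the filter on low counts.

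A receptor tyrosine kinase is a membrane protein that pairs up when its ligand binds, phosphorylates its own tail and recruits adaptors that switch on RAS and, through RAF and MEK, the kinases ERK1 and ERK2. In lung, these systems carry signals between epithelium, endothelium, fibroblasts and immune cells. They are best known for branching during development, for repair of the alveolus after injury and for remodelling of the airway wall.

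The 3 groups of libraries were sequenced from lungs of mice labelled as female BALB/c of 12 weeks. SF-3-030+HDM (n = 3) was given SF-3-030 intranasally (10 mg/kg), 30 min ahead of each dose of house dust mite allergen, on 5 days a week for 3 weeks. HDM (n = 3) had the allergen on the same schedule after the solvent DMSO, which its label names. PBS (n = 4) is the control given saline, and its label names no DMSO. The series title presents the treatment as function-selective targeting of ERK1/2 in an asthma model. The labels give no group with the compound alone and do not tie each library to its own mouse, so p-values here reflect library-to-library spread that may be technical.

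Summed expected counts ran from 55799329 to 59062738 in SF-3-030+HDM, from 49531210 to 58424144 in HDM and from 38667118 to 59083942 in PBS libraries. Levels below are in CPM, counts scaled to a common library total, and changes are log2 fold changes ± SE from edgeR. The lung genes Sftpc, Sftpb, Sftpa1, Ager, Scgb1a1 and Pecam1 were present in every library, and their summed level was 46720 to 49732 CPM in SF-3-030+HDM, 49682 to 68496 CPM in HDM and 73406 to 81573 CPM in PBS. The SF-3-030+HDM libraries differed from the HDM and PBS libraries in a few genes known to differ between inbred strains. Which of the groups match the labelled BALB/c strain was not tested. H2-Ea-ps, a class II histocompatibility gene named as a pseudogene, read 331 to 432 CPM in SF-3-030+HDM, against 0.107 to 0.953 CPM in HDM and 0.340 to 0.860 CPM in PBS. Gbp2b read 46.4 to 47.9 CPM in SF-3-030+HDM, 0.469 to 1.40 CPM in HDM and 0.298 to 0.457 CPM in PBS. Tpsab1 averaged 14.2 CPM in SF-3-030+HDM, 0.168 CPM in HDM and 0.0508 CPM in PBS. Trim12a was the other way, at 0.199 to 0.363 CPM in SF-3-030+HDM, 21.2 to 30.6 CPM in HDM and 18.7 to 25.4 CPM in PBS. Treatment and strain background therefore cannot be told apart in any comparison that uses SF-3-030+HDM. Against the female label, HDM replicates 2 and 3 and PBS replicate 2 held reads of Y-linked Ddx3y, at 31.5, 20.4 and 30.2 CPM. Xist, an X-inactivation gene, read 0.835, 2.71 and 2.25 CPM in those libraries, against 58.5 to 422 CPM in the others. Such libraries were in HDM and PBS but not in SF-3-030+HDM. By these reads sex is uneven over the groups and is mixed with the difference between groups in each comparison. Reads on olfactory and vomeronasal receptor genes, a measure of background, were highest in HDM replicate 3 (230 CPM) and in PBS replicates 1 and 4 (469 and 308 CPM). In whole tissue, fewer cells of a type and less RNA per cell cannot be told apart.

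Allergen was set against saline in HDM against PBS, groups that also differ in the DMSO named for HDM. Igf1 rose and Fgf18 fell, and the other 38 genes did not pass (edgeR quasi-likelihood test, Benjamini-Hochberg adjusted p under 0.05 over 26235 genes). That is 5% of the 40, beside 2.61% of all genes tested, of which 2.32% were higher and 0.294% lower. Fitted log2 fold changes were below 0 for all but 5 of the 40. That leaves 12.5% above 0, beside 38.9% of all genes tested. The median of the 40 was -0.36, beside -0.09 over all genes tested. At an unadjusted p under 0.05, 12 of the 40 would pass, beside 10.8% of all genes tested. On simulated counts for this comparison, 100 genes were changed by a log2 of 1 and 100 by a log2 of 2. Of those changed by 1, 25% were called, so genes that did not pass may still have changed. In the data 685 genes were called, so the share recovered there may differ. The count of called members was 1 without SF-3-030+HDM replicate 2, HDM replicates 1 or 3 or PBS replicates 3 or 4. Those fits put it at 2.5% of the 40, beside 1.62% to 2.01% of all genes. It was 4 without PBS replicate 1, or 10% of the 40 beside 3.78% of all genes in that fit.

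With the compound on top of allergen, 3 of the 40 passed in SF-3-030+HDM against HDM: Igf1 and Fgf18 rose, and Igf2 fell. The members' share was 7.5%, beside 9.49% of all genes tested, of which 3.43% were higher and 6.06% lower, so it lay near the background. The median log2 fold change of the 40 was 0.07, beside -0.03 over all genes tested. With all libraries, 5 of the 40 had an unadjusted p under 0.05, beside 29.2% of all genes tested. DESeq2 called 3 as well, or 7.5% of the 40 beside 18.8% of all genes in that fit. The edgeR count was 0 without SF-3-030+HDM replicate 1, 2 or 3 or without HDM replicate 1. In those fits 2.39%, 2.24%, 3.39% and 7.41% of all genes were called. It was 1 without HDM replicate 2, or 2.5% of the 40 beside 2.90% of all genes.

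Between SF-3-030+HDM and PBS, Igf1 and Pdgfc rose, and Igf2, Btc, Nrg1, Erbb4, Fgfr3, Pdgfrb and Vegfc fell. These 9 are 22.5% of the 40, beside 29.9% of all genes tested, of which 11.8% were higher and 18.1% lower. The median of the 40 was -0.39, beside -0.11 over all genes tested. The share stood below that of all genes here, but not in every fit. Without PBS replicate 1 the count was 18, with 2 higher and 16 lower, or 45% of the 40 beside 28.0% of all genes. Without single SF-3-030+HDM replicates it was 5 or 6, or 12.5% beside 14.3% without replicate 1, 15% beside 13.9% without replicate 2 and 15% beside 17.1% without replicate 3. This comparison shares its libraries with both others, so the 3 sets of calls are not independent of one another.

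**Figure D1:**
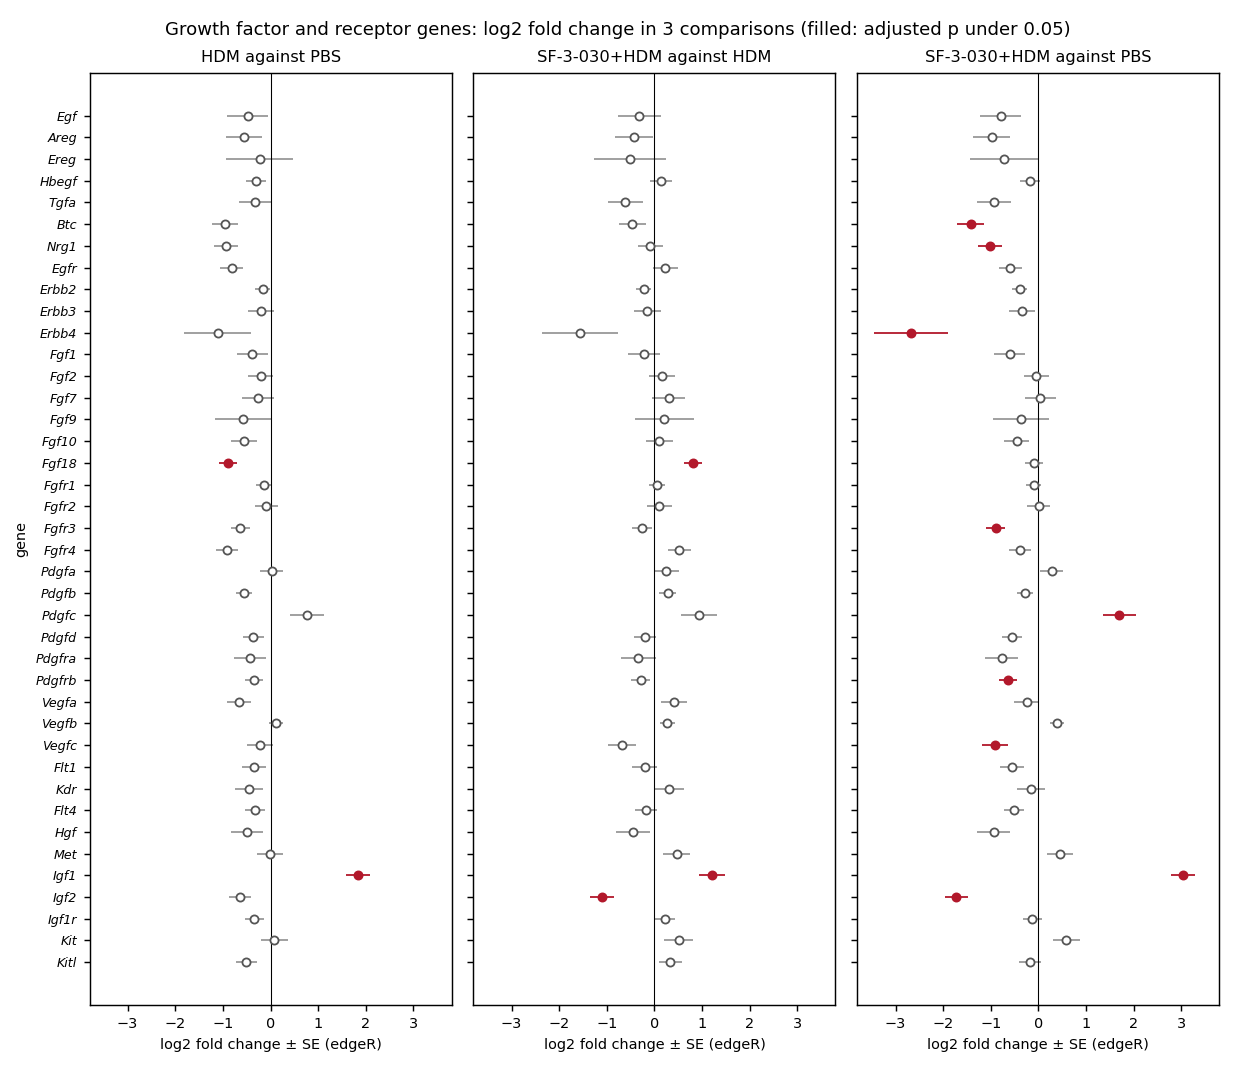
Log2 fold change with SE (horizontal axis) of each of the 40 genes (vertical axis) in HDM against PBS, SF-3-030+HDM against HDM and SF-3-030+HDM against PBS, with filled points for adjusted p under 0.05. Igf1 is filled in all 3 panels, at 1.83, 1.21 and 3.04, and most points in the panels against PBS lie left of 0.

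Igf1 was the 1 member called in all 3 comparisons. It encodes insulin-like growth factor 1, a mitogen for epithelium and fibroblasts that macrophages and mesenchymal cells make (ENSMUSG00000020053, GRCm38 chromosome 10, 87858265 to 87937042). It read 94.96, 89.3 and 87.8 CPM in SF-3-030+HDM, 30.1, 31.0 and 55.1 CPM in HDM, and 12.4, 15.1, 7.45 and 10.2 CPM in PBS. No library of one group reached into another, and HDM replicate 3 was the highest of its group. In HDM against PBS, Igf1 rose 3.55-fold (log2 1.83 ± 0.25, edgeR adjusted p = 0.00309). That call held without each single library (adjusted p 0.00136 to 0.0154) and without the 3 libraries with Y-linked reads (0.0187), but not without the 3 with most background reads (1.48, adjusted p = 0.0561). It rose a further 2.32-fold in SF-3-030+HDM against HDM (1.21 ± 0.27, edgeR adjusted p = 0.0215). The second call was lost on leaving out any SF-3-030+HDM replicate, HDM replicate 1 or HDM replicate 2 (adjusted p 0.0530 to 0.0817), and held without the libraries with Y-linked reads (0.0219) or most background (0.01003). It was also lost with upper-quartile scaling (0.0571). Between SF-3-030+HDM and PBS the rise was 8.22-fold (3.04 ± 0.26, edgeR adjusted p = 1.75e-05), and held without each library.

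Most macrophage markers moved with Igf1 between allergen and saline. The log2 fold change in HDM against PBS was above 0 for 6 of 7, beside 38.9% of all genes tested. Marco averaged lower in HDM, at 8.17 CPM against 13.7 CPM in PBS. The summed level of 7 macrophage markers, all of them detected, was 3056 to 5524 CPM in SF-3-030+HDM, 3362 to 4274 CPM in HDM and 407 to 1361 CPM in PBS. Msr1, Cd68 and Chil3 rose in HDM against PBS, where 2.32% of all genes tested were higher, and the other 4 did not pass. Marco fell in SF-3-030+HDM against HDM, at 0.0339 to 0.209 CPM against 5.91 to 12.5 CPM, and the other 6 did not pass. The sum is carried by Chil3, at a mean of 3971 CPM in SF-3-030+HDM and 3519 CPM in HDM, and hides unlike members. Msr1 was higher in each SF-3-030+HDM library, at 11.3 to 15.7 CPM, than in each HDM library, at 8.70 to 10.9 CPM, and Mrc1 averaged 146 CPM in SF-3-030+HDM and 90.6 CPM in HDM, with overlap. The 8 fibroblast and mesenchyme markers summed to 2528 to 3131 CPM in SF-3-030+HDM, 2739 to 3652 CPM in HDM and 1831 to 2631 CPM in PBS. Of these, Col3a1 rose in HDM against PBS, while Dcn and Lum fell in SF-3-030+HDM against HDM (-1.06 ± 0.28 and -1.28 ± 0.35, edgeR adjusted p = 0.0376 and 0.0417). The part of either cell type in the Igf1 result was not tested.

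Igf2, the fetal insulin-like growth factor, went the other way. It read 1.495, 1.48 and 1.65 CPM in SF-3-030+HDM, 3.62, 3.61 and 2.52 CPM in HDM, and 4.71, 5.68, 4.91 and 5.67 CPM in PBS. The groups did not overlap. It fell 2.13-fold in SF-3-030+HDM against HDM (-1.09 ± 0.25, edgeR adjusted p = 0.0240) and 3.31-fold in SF-3-030+HDM against PBS (-1.73 ± 0.24, edgeR adjusted p = 0.000520). It stood at -0.63 ± 0.23 in HDM against PBS and did not pass (edgeR adjusted p = 0.259). The call against HDM was lost without any SF-3-030+HDM replicate, without HDM replicates 1 or 2 (adjusted p 0.0511 to 0.108), without the libraries with Y-linked reads (0.153) and with limma-voom (0.0531). The call against PBS held without each single library (0.000324 to 0.00563). In GENCODE M21, 64.5% of the exon bases of Igf2 are shared with other genes, Gm49394 on the same strand and Igf2os on the opposite strand. The strand of the libraries is not given, so reads of Igf2 and Igf2os cannot be told apart where they overlap. Strand would not part Igf2 from Gm49394, for which no level is given here. Igf2os itself read 0.0406 to 0.323 CPM in SF-3-030+HDM, 0.220 to 0.422 CPM in HDM and 0.272 to 0.841 CPM in PBS. Adipose markers fell with Igf2: all 5 were called lower in SF-3-030+HDM against both HDM and PBS. Of all genes tested, 6.06% were lower against HDM and 18.1% against PBS. The sum of the adipose markers was 4.09 to 11.9 CPM, against 25.8 to 68.2 CPM in HDM and 42.9 to 108 CPM in PBS. Their part in the Igf2 result was not tested.

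Igf1r encodes the receptor that binds both ligands, and its level did not pass in any comparison. It averaged 77.7 ± 10.1 CPM in SF-3-030+HDM, 65.8 ± 7.25 CPM in HDM and 85.2 ± 14.4 CPM in PBS (SD, n = 3, 3 and 4). Scaled by exon length, Igf1 stood above Igf2 by a factor of 30.7 to 36.7 in SF-3-030+HDM, 4.81 to 12.6 in HDM and 0.877 to 1.53 in PBS libraries. On that scale both ligands read near equal in PBS lung and far apart in SF-3-030+HDM lung. The ratio rests on annotated exon lengths and on an Igf2 level that shared exon bases leave uncertain.

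**Figure D2:**
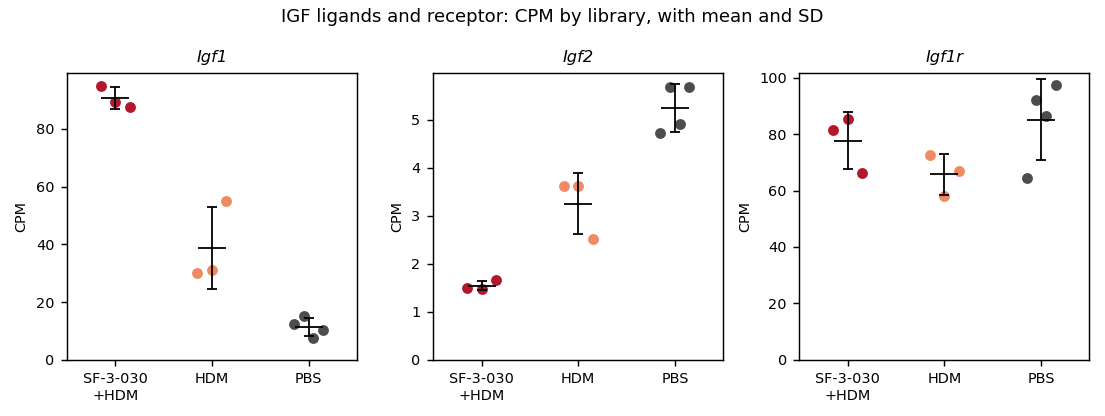
CPM of Igf1, Igf2 and Igf1r (vertical axes, from 0) in each library of SF-3-030+HDM, HDM and PBS (points), with mean and SD (bars). Igf1 averages 90.7, 38.7 and 11.3 CPM and Igf2 1.54, 3.25 and 5.24 CPM in that order of groups, while the 3 groups of Igf1r overlap.

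Promoter windows of 300 bases around the RefSeq start site are shown for the members that carried calls against HDM and for Pdgfc, the other gene that rose against PBS. The sequence is the GRCm38.p6 reference, which is C57BL/6J and not the labelled strain. Windows were found for 32 of the 40 genes, 41 windows in all. The 4 motifs searched on both strands were AP-1 (TGANTCA), CRE (TGACGTCA), the hypoxia core (ACGTG) and the STAT spacing motif. Capitals mark a match.
Igf1 (chr10:87860861-87861160, plus strand): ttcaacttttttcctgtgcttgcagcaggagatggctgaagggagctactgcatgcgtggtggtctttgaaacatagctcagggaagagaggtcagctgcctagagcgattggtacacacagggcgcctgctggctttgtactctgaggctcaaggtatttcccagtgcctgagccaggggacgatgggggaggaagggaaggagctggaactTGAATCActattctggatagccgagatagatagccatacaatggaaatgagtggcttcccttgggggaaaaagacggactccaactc
Igf2 (chr7:142658755-142659054, minus strand): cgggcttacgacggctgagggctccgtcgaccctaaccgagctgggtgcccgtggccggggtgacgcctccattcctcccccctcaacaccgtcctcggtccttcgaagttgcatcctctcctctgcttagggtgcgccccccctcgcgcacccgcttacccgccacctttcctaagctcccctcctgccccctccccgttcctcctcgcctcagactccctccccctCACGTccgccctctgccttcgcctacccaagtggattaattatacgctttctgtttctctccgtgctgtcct
Fgf18 (chr11:33147351-33147650, minus strand): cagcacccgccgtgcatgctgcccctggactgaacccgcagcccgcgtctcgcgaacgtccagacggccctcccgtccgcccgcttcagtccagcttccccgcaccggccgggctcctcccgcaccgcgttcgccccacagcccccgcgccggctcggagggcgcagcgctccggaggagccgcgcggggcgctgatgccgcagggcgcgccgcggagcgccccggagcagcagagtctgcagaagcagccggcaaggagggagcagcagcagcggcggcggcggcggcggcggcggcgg
Pdgfc (chr3:81036166-81036465, plus strand): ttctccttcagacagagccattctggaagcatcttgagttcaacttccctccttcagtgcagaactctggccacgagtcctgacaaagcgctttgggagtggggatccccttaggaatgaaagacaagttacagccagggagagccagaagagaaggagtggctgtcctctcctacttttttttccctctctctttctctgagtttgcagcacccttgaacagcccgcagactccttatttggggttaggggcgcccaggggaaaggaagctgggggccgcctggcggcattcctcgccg
The Igf1 window held TGAATCA, which begins at position -37 from the start site. It matches the AP-1 pattern TGANTCA through the middle base, which the search left free. AP-1 is a family of factors that ERK signalling is known to induce, and its part in the Igf1 level was not tested. A match to TGANTCA was in 4.88% of the member windows and in 7.81% of all 32851 windows. The Igf2 window shown, one of 4 for that gene, held a hypoxia core at -22, a motif found in 17.1% of member windows and 19.6% of all windows. The Fgf18 and Pdgfc windows held none of the 4 motifs. CRE was in 4.88% and 1.79%, and STAT spacing in 2.44% and 6.95%, of member and of all windows. A match describes letters in the reference, not a bound site.

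Fgf18 was the member of the fibroblast growth factor system that changed in both steps. It encodes FGF18, a ligand of mesenchymal and epithelial FGF receptors with a role in alveolar development (ENSMUSG00000057967, GRCm38 chromosome 11, 33117430 to 33147400). Its level was 9.86, 11.4 and 10.8 CPM in SF-3-030+HDM, 5.77, 7.08 and 5.00 CPM in HDM, and 12.8, 11.9, 10.7 and 11.2 CPM in PBS. All HDM libraries lay below all others, and the SF-3-030+HDM and PBS libraries overlapped. Fgf18 fell 1.86-fold in HDM against PBS (-0.90 ± 0.19, edgeR adjusted p = 0.0259). It rose 1.75-fold in SF-3-030+HDM against HDM (0.81 ± 0.20, edgeR adjusted p = 0.0309). Between SF-3-030+HDM and PBS the difference was -0.09 ± 0.18 (edgeR adjusted p = 0.734). The HDM libraries are common to both calls, so a low value in them moves both. The fall was lost without HDM replicates 1 or 3, PBS replicates 2, 3 or 4 or SF-3-030+HDM replicate 2 (adjusted p 0.0520 to 0.113), and the rise without any SF-3-030+HDM replicate or HDM replicates 1 or 3 (0.0622 to 0.107). Both were also lost without the libraries with Y-linked reads (0.223 and 0.157) and without those with most background (0.171 and 0.0728). With only the 2 groups compared they were lost too (0.116 and 0.0511), and the rise was lost with upper-quartile scaling (0.0502).

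The other FGF ligands did not pass in any comparison. Fgf1, which binds every FGF receptor, averaged 124 ± 18.1 CPM in SF-3-030+HDM, 140 ± 39.5 CPM in HDM and 187 ± 60.01 CPM in PBS. Fgf10, the mesenchymal signal for epithelial branching, averaged 8.88 ± 0.902, 8.21 ± 2.84 and 12.3 ± 2.52 CPM in those groups. Its neighbour in function Fgf7, keratinocyte growth factor, averaged 14.4 ± 2.34, 11.5 ± 4.63 and 14.0 ± 4.02 CPM. Fgf2, basic FGF, and Fgf9 also overlapped between groups, at 9.996 to 19.0 CPM and 0.372 to 3.41 CPM over the 10 libraries. Nudt6, on the opposite strand, shares exon bases with Fgf2, so its reads are uncertain.

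Among the FGF receptors, Fgfr3 fell between SF-3-030+HDM and PBS. It read 74.6, 98.5 and 77.1 CPM in SF-3-030+HDM, 123, 89.2 and 83.0 CPM in HDM, and 182, 122, 186 and 147 CPM in PBS. The SF-3-030+HDM and PBS libraries did not overlap. The change was 1.87-fold (-0.90 ± 0.20, edgeR adjusted p = 0.00800), and it missed the threshold without SF-3-030+HDM replicate 1 (0.050012). It stood at -0.64 ± 0.20 in HDM against PBS (edgeR adjusted p = 0.151). G630022F23Rik, on the opposite strand, shares 13.9% of the exon bases of Fgfr3 and was itself lower in SF-3-030+HDM against PBS (-1.27 ± 0.29, edgeR adjusted p = 0.00856). Of 9 alveolar type 1 markers, all detected, 5 also fell in that comparison, with a sum of 4691 to 5280 CPM in SF-3-030+HDM and 8939 to 9784 CPM in PBS. So did 4 of 10 alveolar type 2 markers, beside 18.1% of all genes tested. The part of alveolar type 1 cells in the Fgfr3 result was not tested.

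Fgfr4 had its lowest mean in HDM, as did Fgf18 and members of other systems such as Vegfa and Kdr. It averaged 33.5 ± 2.99 CPM in SF-3-030+HDM, 23.1 ± 5.45 CPM in HDM and 45.5 ± 13.5 CPM in PBS, without a call (edgeR adjusted p = 0.181 against HDM, and 0.0682 for HDM against PBS). Fgfr1 averaged 77.6 ± 5.25 CPM, 74.9 ± 12.7 CPM and 85.6 ± 7.75 CPM in SF-3-030+HDM, HDM and PBS. Fgfr2, the epithelial receptor of FGF7 and FGF10, averaged 138 ± 8.29 CPM, 128 ± 37.3 CPM and 139 ± 25.7 CPM in the same groups. Neither Fgfr1 nor Fgfr2 passed in any comparison.

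In the EGF system the called genes were Btc, Nrg1 and Erbb4, all lower in SF-3-030+HDM against PBS. Btc encodes betacellulin, a ligand of EGFR and ERBB4. It read 1.05, 1.34 and 0.982 CPM in SF-3-030+HDM, 1.77, 1.51 and 1.28 CPM in HDM, and 2.38, 3.31, 3.56 and 2.91 CPM in PBS. Every PBS library was above every other library. The fall was 2.68-fold (-1.42 ± 0.28, edgeR adjusted p = 0.00408) and held without each single library (0.00117 to 0.0301). For HDM against PBS it stood at -0.96 ± 0.27 (edgeR adjusted p = 0.109).

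Nrg1, neuregulin 1, which binds ERBB3 and ERBB4, read 4.27, 3.65 and 3.71 CPM in SF-3-030+HDM, 3.29, 5.18 and 3.56 CPM in HDM, and 7.82, 6.33, 7.83 and 10.1 CPM in PBS. Again the PBS libraries lay above all others, while SF-3-030+HDM and HDM overlapped. It fell 2.03-fold in SF-3-030+HDM against PBS (-1.02 ± 0.25, edgeR adjusted p = 0.0119), and the call was lost without SF-3-030+HDM replicate 2 (0.0594). It stood at -0.93 ± 0.25 in HDM against PBS (edgeR adjusted p = 0.0815).

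Erbb4, a receptor of neuregulins and betacellulin, was at the limit of detection. It had 4, 8 and 2 counts in SF-3-030+HDM, 10.6, 9.33 and 18.003 expected counts in HDM, and 44.4, 9.73, 26.0 and 25.2 in PBS. Its level was 0.0824 ± 0.0558 CPM in SF-3-030+HDM and 0.567 ± 0.414 CPM in PBS, a fall of 6.38-fold with a wide error (-2.67 ± 0.77, edgeR adjusted p = 0.0244). The call was lost without SF-3-030+HDM replicates 1 or 3 (0.0828 and 0.0867) and without the 3 libraries with most background (-1.93, adjusted p = 0.0841), and with limma-voom (0.0724). Background reads on olfactory and vomeronasal receptor genes were 16.01 to 32.6 CPM in SF-3-030+HDM, 90.4 to 230 CPM in HDM and 49.2 to 469 CPM in PBS. All 7 heart muscle markers fell in SF-3-030+HDM against PBS, beside 18.1% of all genes tested. Their sums were 153 to 239.7 CPM in SF-3-030+HDM and 374 to 912 CPM in PBS. The part of background reads or heart muscle in the Erbb4 result was not tested.

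The remaining EGF ligands did not pass. Areg, amphiregulin, a ligand of EGFR that type 2 immune cells are known to make, averaged 2.48 ± 0.599 CPM in SF-3-030+HDM, 3.31 ± 1.37 CPM in HDM and 4.92 ± 2.26 CPM in PBS. Hbegf, heparin-binding EGF-like growth factor, averaged 43.6 ± 2.29, 39.2 ± 11.8 and 49.9 ± 6.10 CPM in those groups. Tgfa, transforming growth factor alpha, averaged 10.1 ± 0.395, 15.03 ± 4.74 and 19.2 ± 7.12 CPM. Both ends of the Tgfa range over the 10 libraries came from PBS libraries, with replicate 1 at 9.27 CPM and replicate 4 at 26.2 CPM. Egf and Ereg were low, at 0.508 to 2.56 CPM and 0.0677 to 0.528 CPM over all libraries. Ereg, epiregulin, had at most 26.4 counts in a library, and the SE of its log2 fold change was 0.70 to 0.76.

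Egfr, the receptor of these ligands, averaged 18.6 ± 1.38 CPM in SF-3-030+HDM, 15.6 ± 1.75 CPM in HDM and 28.2 ± 8.15 CPM in PBS. It stood at -0.82 ± 0.25 in HDM against PBS (edgeR adjusted p = 0.135) and at 0.23 ± 0.26 in SF-3-030+HDM against HDM (edgeR adjusted p = 0.599). Erbb2, the partner receptor without a ligand of its own, averaged 45.1 ± 0.456, 52.0 ± 4.51 and 61.0 ± 12.4 CPM in SF-3-030+HDM, HDM and PBS. Erbb3, its neuregulin-binding partner, averaged 45.6 ± 2.66, 50.2 ± 13.1 and 58.4 ± 18.2 CPM. Neither passed in any comparison.

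**Figure D3:**
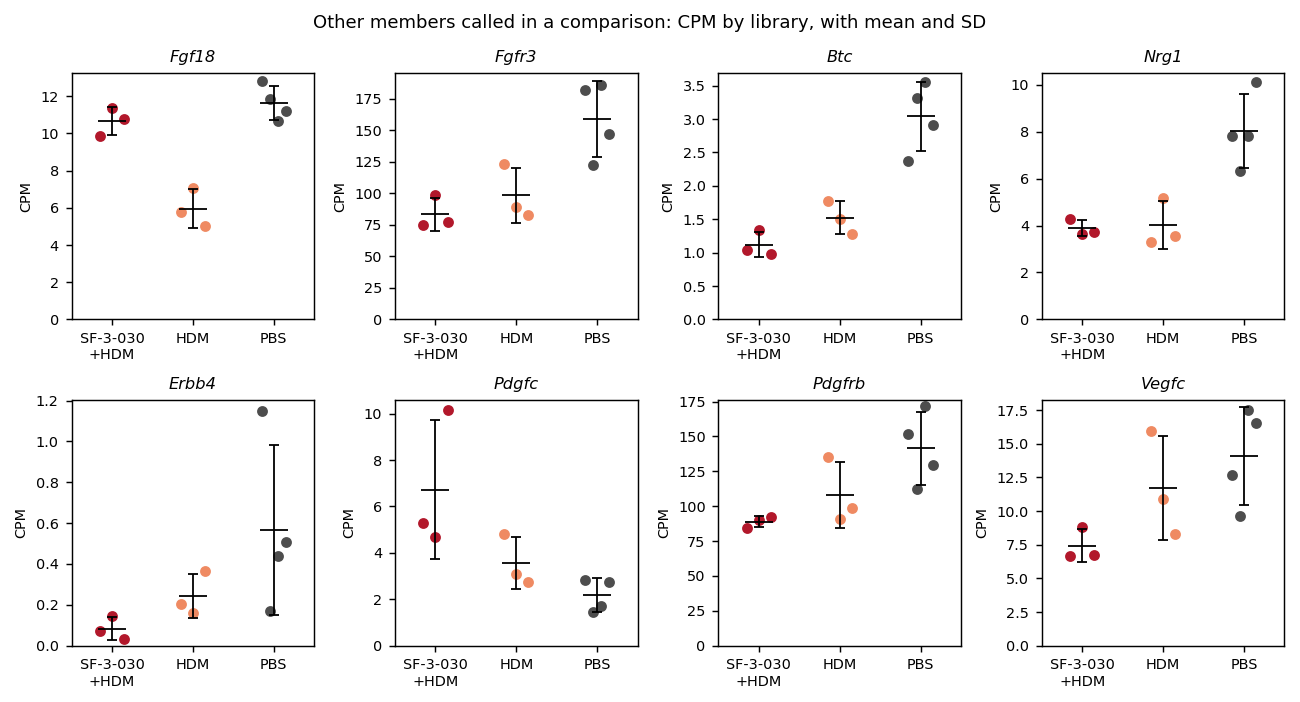
CPM (vertical axes, from 0) of the other 8 members called in a comparison, in each library of SF-3-030+HDM, HDM and PBS (points), with mean and SD (bars). Fgf18 dips in HDM alone, Pdgfc averages 6.73, 3.55 and 2.19 CPM in that order of groups, and the other 6 are highest on average in PBS.

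In the PDGF system, the ligand gene Pdgfc rose and the receptor gene Pdgfrb fell between SF-3-030+HDM and PBS. PDGF-C is a ligand of PDGF receptor alpha that drives fibroblasts. Pdgfc read 5.30, 4.70 and 10.2 CPM in SF-3-030+HDM, 4.82, 3.09 and 2.75 CPM in HDM, and 2.83, 1.45, 1.69 and 2.76 CPM in PBS. SF-3-030+HDM replicate 3 was the highest library, and the SF-3-030+HDM libraries overlapped with HDM but not with PBS. The rise against PBS was 3.25-fold (1.70 ± 0.35, edgeR adjusted p = 0.00520) and held without each single library (0.00463 to 0.0264). Against HDM it stood at 0.94 ± 0.37 (edgeR adjusted p = 0.121).

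Pdgfrb, PDGF receptor beta of pericytes and smooth muscle, read 84.4, 90.3 and 92.4 CPM in SF-3-030+HDM, 135, 90.8 and 98.5 CPM in HDM, and 152, 113, 172 and 129 CPM in PBS. Its fall in SF-3-030+HDM against PBS was 1.55-fold (-0.63 ± 0.19, edgeR adjusted p = 0.0293). It was lost without any SF-3-030+HDM replicate or PBS replicate 3 (0.0592 to 0.123). Of 7 pericyte and smooth muscle markers, Notch3 fell and Rgs5 rose in the same comparison, and their sum was 1076 to 1425 CPM in SF-3-030+HDM and 897 to 1032 CPM in PBS.

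Pdgfra, the receptor of fibroblasts, averaged 152 ± 15.4 CPM in SF-3-030+HDM, 189 ± 80.5 CPM in HDM and 260 ± 73.4 CPM in PBS, without a call (edgeR adjusted p = 0.112 in SF-3-030+HDM against PBS). Pdgfb, the ligand of endothelium that recruits pericytes, averaged 119 ± 18.8, 96.1 ± 7.54 and 149 ± 27.1 CPM in the same groups. Pdgfa averaged 103 ± 15.3, 84.9 ± 22.9 and 87.4 ± 33.8 CPM, and Pdgfd 10.2 ± 0.430, 11.5 ± 3.91 and 15.3 ± 1.13 CPM. No call was made for these 4 genes in any comparison, and Pdgfa shares 26.1% of its exon bases with 6330403L08Rik on the opposite strand.

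Vegfc, the ligand of lymphatic growth, was the called member of the VEGF system. It read 6.66, 8.82 and 6.74 CPM in SF-3-030+HDM, 15.9, 10.9 and 8.30 CPM in HDM, and 12.7, 9.61, 17.5 and 16.5 CPM in PBS. Its fall in SF-3-030+HDM against PBS was 1.87-fold (-0.91 ± 0.27, edgeR adjusted p = 0.0287), with no overlap, and was lost without any SF-3-030+HDM replicate or PBS replicates 3 or 4 (0.0625 to 0.115). Its receptor gene Flt4, VEGF receptor 3, averaged 49.4 ± 2.52 CPM in SF-3-030+HDM, 55.0 ± 7.71 CPM in HDM and 71.6 ± 15.95 CPM in PBS (edgeR adjusted p = 0.0883 in SF-3-030+HDM against PBS).

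Vegfa, the main ligand of blood vessel growth and a product of alveolar type 1 cells, averaged 448 ± 135 CPM in SF-3-030+HDM, 327 ± 76.9 CPM in HDM and 531 ± 102 CPM in PBS. It stood at -0.66 ± 0.26 in HDM against PBS (edgeR adjusted p = 0.320). Its endothelial receptor gene Kdr averaged 321 ± 7.997, 254 ± 58.3 and 358 ± 104 CPM in the same groups, and Flt1, the decoy-like receptor, 164 ± 13.5, 186 ± 24.1 and 242 ± 66.9 CPM. Vegfb averaged 30.5 ± 2.74, 25.2 ± 2.19 and 24.0 ± 2.85 CPM. None of these 4 passed in any comparison. Of 9 endothelial markers, Cdh5 fell in SF-3-030+HDM against PBS and the other 8 did not pass.

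Hgf, a mesenchymal growth factor for epithelium, and its receptor gene Met did not pass. Hgf averaged 4.83 ± 0.568 CPM in SF-3-030+HDM, 6.45 ± 2.95 CPM in HDM and 9.34 ± 2.29 CPM in PBS (edgeR adjusted p = 0.0576 in SF-3-030+HDM against PBS). Met averaged 68.3 ± 14.4, 49.3 ± 14.2 and 51.0 ± 10.0 CPM in the same groups. Kit, the stem cell factor receptor of mast cells and of a class of lung capillary endothelium, averaged 169 ± 7.87, 117 ± 34.1 and 113 ± 32.2 CPM, and its ligand gene Kitl 110 ± 17.7, 85.5 ± 25.8 and 126 ± 12.5 CPM. The 3 SF-3-030+HDM libraries were above all others for Kit, and no call was made (edgeR adjusted p = 0.288 against HDM). Of 8 mast cell markers, Kit among them, 6 were called higher in SF-3-030+HDM against HDM, beside 3.43% of all genes tested. Cpa3, for example, read 4.04 to 5.54 CPM in SF-3-030+HDM and 0.611 to 0.708 CPM in HDM. Gata2, of the same list, went the other way, at a mean of 89.9 CPM in SF-3-030+HDM, 103 CPM in HDM and 173 CPM in PBS. Strain background and treatment cannot be told apart in these marker levels, and the part of mast cells in the Kit level was not tested.

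Levels can be set between genes only per length, and were divided by the exon length of each gene. On that scale Vegfa was the highest of the 40 in every group, at 104 CPM per kb in SF-3-030+HDM, 76.3 in HDM and 124 in PBS, and Kdr was second in every group. Erbb4, Ereg and Egf were the 3 lowest in every group. Igf1 moved most in this order, to place 15 in SF-3-030+HDM and 24 in HDM, against 32 in PBS. Kit was at place 7, 12 and 14 and Fgfr3 at place 13, 10 and 8 in SF-3-030+HDM, HDM and PBS.

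**Figure D4:**
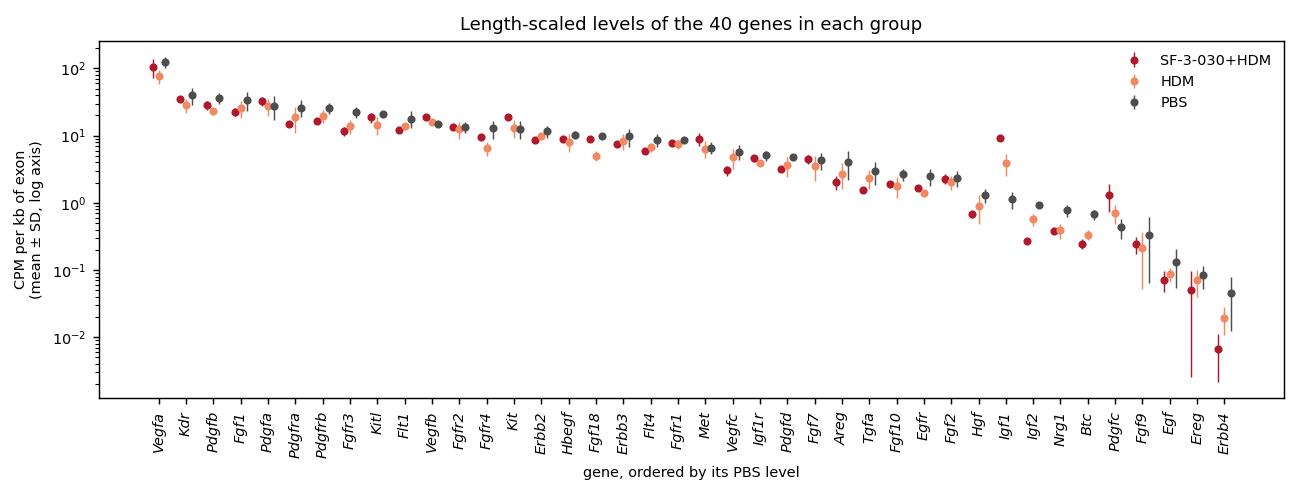
CPM per kb of exon (vertical log axis, mean and SD) of the 40 genes, ordered by their PBS level, for SF-3-030+HDM, HDM and PBS. Vegfa and Kdr lead in each group, and Igf1 shows the widest gap between groups, at 9.15, 3.91 and 1.14 CPM per kb.

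Spread between replicates differed between groups. Over members at 1 CPM or more, the median coefficient of variation was 8.97% in SF-3-030+HDM (37 genes), 25.8% in HDM (36 genes) and 23.4% in PBS (38 genes). In HDM, replicate 3 was the lowest library for 25 of the 40 genes and replicate 1 the highest for 25. In PBS, replicate 1 was the lowest for 20 of the 40 and the highest for 12. Both HDM replicate 3 and PBS replicate 1 had the most background reads of their group, and its part in these levels was not tested.

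**Figure D5:**
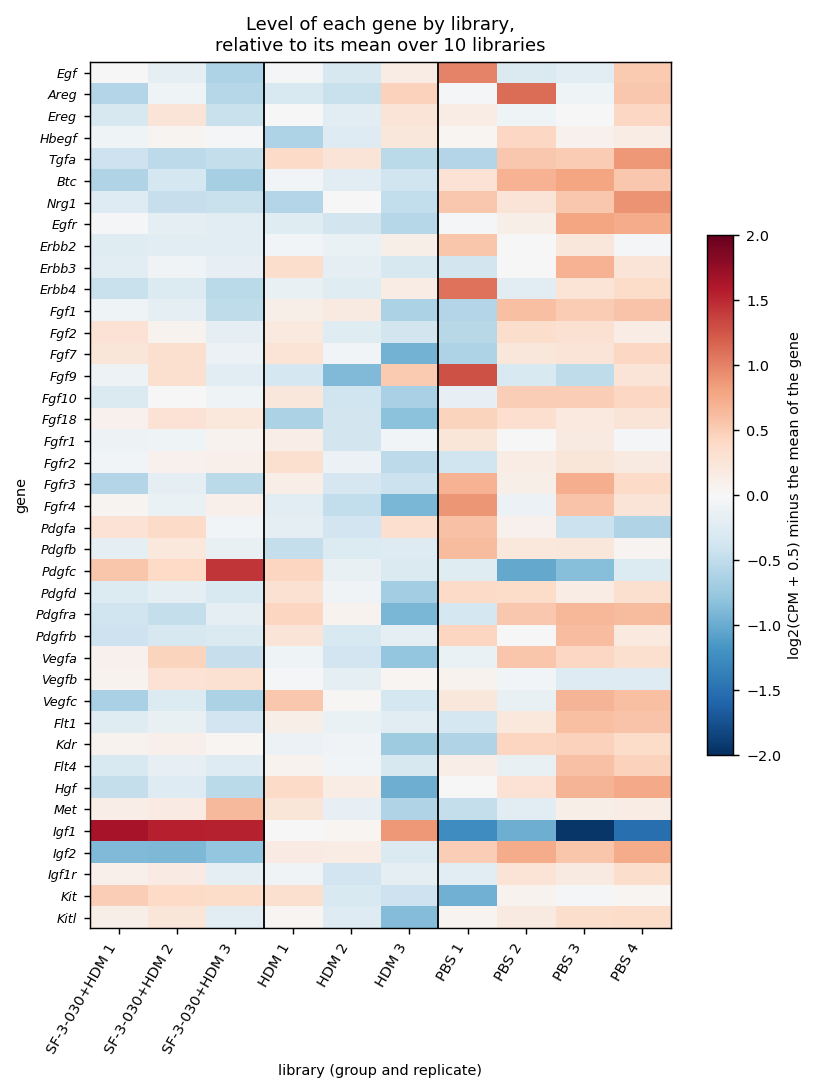
Level of each of the 40 genes (rows) in each library (columns), as log2(CPM + 0.5) minus the mean of the gene over 10 libraries. Igf1 is above its mean in SF-3-030+HDM and below it in PBS, Igf2 is the reverse, and HDM replicate 3 and PBS replicate 1 differ from the rest of their groups in many rows.

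Further genes of these pathways, 162 in 8 lists outside the 40, were counted with the same fit, and 154 were tested. Of these, 3 rose and 3 fell in HDM against PBS (3.90%). The counts were 6 that rose and 8 that fell in SF-3-030+HDM against HDM (9.09%), and 17 that rose and 44 that fell in SF-3-030+HDM against PBS (39.6%). The first 2 shares lie near the background of 2.61% and 9.49%, and the share against PBS with the compound is above 29.9%. The first count was 3 without HDM replicates 1 or 3, where 2.01% and 1.62% of all genes were called. It was 1 without HDM replicate 2 or PBS replicate 4, beside 1.07% and 1.62% of all genes. The second was 7 without SF-3-030+HDM replicates 1 or 3, 5 without replicate 2, 6 without HDM replicate 2 and 24 without PBS replicate 1. The share of all genes called moved too: 2.39% and 3.39% without SF-3-030+HDM replicates 1 and 3, and 2.24% without replicate 2. It was 2.90% without HDM replicate 2 and 15.2% without PBS replicate 1. The last count was 39 without SF-3-030+HDM replicate 1 and 35 without replicate 2, beside 14.3% and 13.9% of all genes in those fits.

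IGF binding proteins hold IGF1 and IGF2 in tissue and blood. Of 14 tested genes of the IGF axis, Igfbp6 (-1.31 ± 0.23, edgeR adjusted p = 0.0117) and Igfbp3 (-1.54 ± 0.35, edgeR adjusted p = 0.0390) fell in HDM against PBS. Igfbp3 read 29.2, 22.5 and 34.9 CPM in SF-3-030+HDM, 66.8, 51.7 and 22.3 CPM in HDM, and 154, 97.6, 159.5 and 157 CPM in PBS. Igfals, the acid-labile subunit of the circulating IGF complex, fell in SF-3-030+HDM against HDM (-2.83 ± 0.35, edgeR adjusted p = 0.000590), with 0.339 to 0.416 CPM against 2.10 to 3.47 CPM. Against PBS, 6 genes of the axis fell in SF-3-030+HDM, Igfals, Igfbp6, Igfbp3 and Pappa2 with the smallest p (adjusted p 0.000569 to 0.00369, edgeR), and 1 rose. That is 50% of the 14, beside 29.9% of all genes tested.

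Of the other receptor tyrosine kinases and their ligands, 45 tested, Tyro3, a receptor for GAS6, fell in HDM against PBS (-0.79 ± 0.18, edgeR adjusted p = 0.0455). In the comparison of SF-3-030+HDM with HDM, Ltk (1.80 ± 0.30, edgeR adjusted p = 0.00396) and Ros1 (2.22 ± 0.42, edgeR adjusted p = 0.00961) rose, and Gfra1, a co-receptor for GDNF, fell (-1.59 ± 0.33, edgeR adjusted p = 0.0153). Ros1 read 9.57, 11.7 and 7.13 CPM in SF-3-030+HDM, against 2.27, 1.85 and 1.84 CPM in HDM. Against PBS, 4 rose and 17 fell in SF-3-030+HDM, or 46.7% of the 45, beside 29.9% of all genes tested. Among them, Gfra1 (-2.10 ± 0.32, edgeR adjusted p = 0.000887) and Efnb1, an ephrin ligand (-1.21 ± 0.19, edgeR adjusted p = 0.00113), fell, and Ltk rose (1.74 ± 0.27, edgeR adjusted p = 0.000945).

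In the VEGF axis, Pgf, placental growth factor and a ligand of FLT1, rose in SF-3-030+HDM against HDM (0.83 ± 0.22, edgeR adjusted p = 0.0365), at 11.9 to 13.5 CPM and 4.97 to 9.43 CPM in those groups. Against PBS, Pgf (1.11 ± 0.20, edgeR adjusted p = 0.00241) and Nrp2 (0.87 ± 0.25, edgeR adjusted p = 0.0224) rose in SF-3-030+HDM, and Esm1 (-1.56 ± 0.51, edgeR adjusted p = 0.0372) and Cdh5 (-0.69 ± 0.24, edgeR adjusted p = 0.0459) fell. Beside the HGF system, Plau, the protease urokinase that can activate pro-HGF, rose in SF-3-030+HDM against HDM (1.14 ± 0.17, edgeR adjusted p = 0.00250), at 24.8 to 30.2 CPM and 11.5 to 13.1 CPM in those groups. Against PBS, Plau (1.48 ± 0.16, edgeR adjusted p = 9.23e-05) and Hgfac (1.09 ± 0.28, edgeR adjusted p = 0.0153) rose in SF-3-030+HDM, and Plxnb1 fell (-0.92 ± 0.17, edgeR adjusted p = 0.00334). In the PDGF and KIT axis, Flt3, a receptor of dendritic cell precursors, rose in HDM against PBS (1.26 ± 0.23, edgeR adjusted p = 0.0144) and fell in SF-3-030+HDM against HDM (-1.06 ± 0.25, edgeR adjusted p = 0.0294). Its level was 8.04 to 10.3 CPM in SF-3-030+HDM, 17.0 to 22.3 CPM in HDM and 5.399 to 12.0 CPM in PBS. The HDM libraries, which both comparisons share, were the highest. Against PBS, Pdgfrl alone of 8 tested passed in SF-3-030+HDM, and rose (1.05 ± 0.23, edgeR adjusted p = 0.00803).

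In the FGF family outside the 40, 18 genes were tested. In SF-3-030+HDM against HDM, Fgf23, a hormone of phosphate balance, rose (3.73 ± 0.84, edgeR adjusted p = 0.0225) and Kl, which encodes its co-receptor Klotho, fell (-2.80 ± 0.57, edgeR adjusted p = 0.0141). Fgf23 read 3.58, 9.57 and 4.31 CPM in SF-3-030+HDM and 0.115, 0.253 and 0.920 CPM in HDM. Against PBS, 2 of the 18 rose and 11 fell in SF-3-030+HDM, or 72.2%, beside 29.9% of all genes tested. Of the 11, 8 had a mean under 2 CPM in every group, and background reads were lower in SF-3-030+HDM too (16.01 to 32.6 CPM, against 49.2 to 469 CPM in PBS), whose part in these calls was not tested. Kl (-3.17 ± 0.56, edgeR adjusted p = 0.00217) and Fgfrl1 (-0.72 ± 0.15, edgeR adjusted p = 0.00503) fell there, and Fgf23 (4.39 ± 0.78, edgeR adjusted p = 0.00234) and Fgf11 (1.00 ± 0.22, edgeR adjusted p = 0.00810) rose. In the EGF family list, Nrg3 had 0 counts in SF-3-030+HDM and 46 in HDM, at least 16.5-fold lower with 3 counts over the group as the floor. Against PBS, 1 of its 15 tested genes rose and 4 fell in SF-3-030+HDM (33.3%): Cd44 rose (0.85 ± 0.21, edgeR adjusted p = 0.0138), and Nrg2 (-1.22 ± 0.23, edgeR adjusted p = 0.00317), Rhbdf1 (-0.85 ± 0.18, edgeR adjusted p = 0.00702) and Nrg3, with 0 and 84 counts and at least 23.6-fold lower, were among those that fell. Among 32 adaptors, Sh2b2 (0.93 ± 0.17, edgeR adjusted p = 0.0147) and Plcg2 (1.01 ± 0.20, edgeR adjusted p = 0.0214) rose in HDM against PBS, both known in immune cell signalling. Grb7 fell in SF-3-030+HDM against HDM (-0.58 ± 0.17, edgeR adjusted p = 0.0498), and Shc3 fell as well, with 2 counts in SF-3-030+HDM and 167 in HDM, a ratio of 89.9 (exact 95% counting interval 24.5 to 749). Grb2, the adaptor that links receptors to SOS, rose in SF-3-030+HDM against PBS (0.78 ± 0.16, edgeR adjusted p = 0.00568), as did Sh2b2 (1.34 ± 0.17, edgeR adjusted p = 0.000311) and Plcg2 (1.04 ± 0.20, edgeR adjusted p = 0.00399). Shc3 fell there, with 2 and 354 counts, a ratio of 149 (exact 95% counting interval 41.0 to 1236), and 7 of the 32 were called in all (21.9%, beside 29.9% of all genes tested). The counts of Nrg3 and Shc3 are sums over each group. Their levels were low, and the part of background reads, lower in SF-3-030+HDM, was not tested for them.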

How the data were processed

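Whole-lung RNA was sequenced in 10 libraries. Reads were trimmed with Trimmomatic 0.36 and aligned with STAR 2.5.2b to GRCm38, per the submitters' processing notes, which give no order. No source used here names the counter, the annotation or the strand. The authors deposited expected counts per gene, marked as raw per the file headers, with blanks read here as 0. The authors also deposited normalized log2 values, which entered no test.

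Expected counts were rounded and fitted with edgeR 4.0.16 in R 4.3.3 (filterByExpr, TMM scaling, quasi-likelihood test, two-sided, one term per group over all 10 libraries). A gene was called at a Benjamini-Hochberg adjusted p under 0.05 over 26235 genes. The SE is the log2 fold change divided by the root of F. CPM used summed counts of 38667118 to 59083942 per library. On simulated counts for HDM against PBS (25120 genes), 100 genes were changed at each size. Of genes changed by a log2 of 1, 25% were recovered, and of those changed by 2, 91%.

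The members and all gene lists were chosen with earlier results of these data known. Members called in a comparison are given in every library, the others by mean and SD or range; from each wider list, up to 4 called genes with the smallest p per comparison are named, except 1 that is not reported here. Exon overlap and length come from GENCODE release 21, promoters from RefSeq. Alternatives were other scaling, filters, DESeq2 1.42.0, limma 3.58.1 (voom), the compared groups alone, a replicate block, a stricter threshold and libraries left out. Intervals on counts cover counting error only.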

Additional observations from a re-analysis of the deposited data

Results flagged for a closer look

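In 5 of the 40 genes, PBS replicate 1 lay far below the other 3 PBS libraries, past Dixon's critical value for 4 samples. Such gaps arise by chance in a small share of groups. Fgf1 read 97.8 CPM there, against 209 to 224 CPM in the others. Fgf10 read 8.59 CPM, against 13.0 to 13.9 CPM. Pdgfra read 151 CPM, against 282 to 307 CPM. Kdr read 202 CPM, against 396 to 421 CPM. Kit read 64.5 CPM, against 124 to 133 CPM. PBS replicate 1 also had the smallest summed count (38667118) and the most reads on olfactory and vomeronasal receptor genes (469 CPM), whose part in these values was not tested.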

How the results depend on the processing

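No called member changed direction under any alternative run. Of single-member calls with a library left out, 14 of 20 were kept in HDM against PBS, 15 of 30 in SF-3-030+HDM against HDM and 77 of 90 in SF-3-030+HDM against PBS. In HDM against PBS (2 members called, 6 in the wider lists), DESeq2 called 8 and 10, the compared groups alone 1 member, the 0.01 threshold 1 and 0, the fit without the libraries with Y-linked reads 1 and 1, and the fit without those with most background 0 and 0. Leaving out single libraries gave 1 to 4 and 1 to 8.

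In SF-3-030+HDM against HDM (3 and 14), upper-quartile scaling called 1 member (0 higher, 1 lower), DESeq2 31 in the wider lists, limma-voom 9, the compared groups alone 22, the 0.01 threshold 0 and 5, the fit without Y-linked libraries 1 and 4, and without most background 5 and 27, where the members' median was -0.10. Leaving out single libraries gave 0 to 3 and 5 to 24, with 2.24% to 15.2% of all genes called. The share of all genes called was 7.82% with upper-quartile scaling, 18.8% with DESeq2 and 5.14% with limma-voom. It was 13.0% with the compared groups alone, 1.80% without Y-linked libraries and 13.3% without most background. In SF-3-030+HDM against PBS (9 and 61), upper-quartile scaling called 20 members (2 higher, 18 lower) with a median of -0.62, RLE scaling 12 (2 higher, 10 lower), the 1 CPM filter 15, DESeq2 18, the 0.01 threshold 5 and 33, and the fit without most background 17. The members' share was 22.5% beside 29.9% of all genes as reported, but 50% beside 31.9% with upper-quartile scaling, 30% beside 30.3% with RLE, 37.5% beside 30.3% with the 1 CPM filter, 45% beside 34.8% with DESeq2 and 42.5% beside 22.8% without most background, so which is larger depends on these settings. In HDM against PBS, DESeq2 gave 20% beside 6.53%. Leaving out single libraries gave 5 to 18 and 35 to 61 in SF-3-030+HDM against PBS, with 13.9% to 31.8% of all genes called. Upper-quartile scaling moved the median of all genes to -0.31 in that comparison, against -0.11. The cause of these shifts was not tested.

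Replicate numbers are not said to pair the samples. The deviations of same-numbered libraries correlated between -0.46 and 0.32. Other pairs of libraries were not set beside them, so that range cannot settle whether the samples are paired. With a replicate block, 1, 0 and 4 members and 0, 7 and 32 genes of the wider lists were called in HDM against PBS, SF-3-030+HDM against HDM and SF-3-030+HDM against PBS. In that order, 0.949%, 3.03% and 10.0% of all genes were called with the block. The block ended the calls of Igf1, Igf2 and Fgf18 against HDM, of Fgf18 in HDM against PBS, and of Erbb4, Fgfr3, Nrg1, Vegfc and Pdgfrb against PBS (adjusted p 0.0558 to 0.153). Depth limits Erbb4 and Ereg, with at most 44.4 and 26.4 counts in a library.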
